A study of Mus musculus with 2 samples.

Results

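The genes described here are 10 genes by which mast cells are recognised, supplied and controlled: the granule proteases Mcpt1, Mcpt2, Mcpt4, Cma1, Cpa3 and Tpsb2, the receptor genes Kit, Ms4a2 and Fcer1a, and Kitl, the gene of stem cell factor, which is the ligand of Kit. They were picked by gene symbol, from 12393 genes that the array's annotation could name, and 15 probe sets read them. Total RNA of back skin from mice aged 10 days was hybridised as a biotin-labelled target, 1 array for transgenic mice and 1 for their wild-type littermates. The transgenic animals carried AhR, the aryl hydrocarbon receptor, in a constitutively active form in keratinocytes. Their array is titled K14Ahr, and the labels spell out neither the promoter nor the sex, the strain or the number of animals behind an array. Over all probe sets the median signals were 49.1 (transgenic) and 50.7 (wild type). The tissue was whole skin, so a difference between arrays can reflect fewer or more cells of a type or less or more RNA per cell, which cannot be told apart.

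Mast cells reach the skin as progenitors and mature there, and they need stem cell factor, made by keratinocytes, fibroblasts and endothelial cells, to survive and grow. They store chymases, tryptases and carboxypeptidase A3 in granules bound to heparin. IgE bound to the high-affinity receptor, whose chains are encoded by Fcer1a, Ms4a2 and Fcer1g, triggers the release of these granules when antigen binds. Kit is also carried by melanocytes, which depend on stem cell factor too. Mouse mast cells of connective tissue are known for the chymases encoded by Mcpt4 and Cma1, for tryptase and for Cpa3. Mucosal mast cells are known for Mcpt1 and Mcpt2.

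The 4 protease genes whose upstream sequence was at hand are shown because the results turn on the proteases. Of these 4 genes Mcpt4, Cma1 and Cpa3 were higher on the transgenic array, and Mcpt1 was below the signal floor on both arrays. Each line reads 5′ to 3′ towards the start site, from RefSeq on the mouse build GRCm38.p6, and capitals mark the letters GATA or, for the other strand, TATC. The windows are chr14:56017714-56017963, plus strand for Mcpt1, chr14:56062311-56062560, minus strand for Mcpt4, chr14:55944676-55944925, minus strand for Cma1 and chr3:20242210-20242431, minus strand for Cpa3, where the last 28 bases are left out because the gene table places them inside the gene.
Mcpt1: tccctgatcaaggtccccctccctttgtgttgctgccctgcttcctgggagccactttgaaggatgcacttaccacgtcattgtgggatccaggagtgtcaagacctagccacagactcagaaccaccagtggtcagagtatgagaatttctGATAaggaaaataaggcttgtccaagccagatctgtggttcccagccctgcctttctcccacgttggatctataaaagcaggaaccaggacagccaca
Mcpt4: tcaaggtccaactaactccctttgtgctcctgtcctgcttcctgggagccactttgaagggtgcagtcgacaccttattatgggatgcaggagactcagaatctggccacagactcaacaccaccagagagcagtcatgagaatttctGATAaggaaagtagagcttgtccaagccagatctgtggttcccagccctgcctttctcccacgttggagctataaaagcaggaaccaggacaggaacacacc
Cma1: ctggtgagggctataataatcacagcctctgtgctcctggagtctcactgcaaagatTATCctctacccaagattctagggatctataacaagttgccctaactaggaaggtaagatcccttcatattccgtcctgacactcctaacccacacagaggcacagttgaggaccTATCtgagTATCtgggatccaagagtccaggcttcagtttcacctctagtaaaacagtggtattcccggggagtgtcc
Cpa3: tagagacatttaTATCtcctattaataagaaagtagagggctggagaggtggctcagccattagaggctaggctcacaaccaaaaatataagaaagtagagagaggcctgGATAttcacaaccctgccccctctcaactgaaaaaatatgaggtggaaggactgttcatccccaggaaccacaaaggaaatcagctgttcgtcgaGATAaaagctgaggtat

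The windows of Mcpt1 and Mcpt4 resembled each other closely. Aligned end to end, 209 of 250 bases (83.6%) were identical, against 45.2% to 58.4% for the other 27 pairs among the 8 members with an upstream window. Both held 1 GATA, beginning 98 bases before the start in Mcpt1 and 102 before it in Mcpt4. Cma1 and Cpa3 each held 3, and of the receptor genes Ms4a2 held 5 and Fcer1a 2, while Kit and Kitl held none. The gene table places the last 71 bases of the Ms4a2 window inside the gene. Of its GATA only the copy beginning 223 bases before the start lies outside them, and those beginning 58 and 56 bases before it overlap. GATA is the core bound by factors such as GATA1 and GATA2, which mast cells use, and on either strand it stood in 54.1% of the 250-base windows of 27025 genes. No window of Mcpt2 or Tpsb2 was matched by symbol.

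Kit and Kitl are shown for another motif, GCGTG, the core of the element bound by AhR and its partner ARNT. Capitals mark it in the 250 bases before the start of Kit (chr5:75574737-75574986, plus strand) and in a short stretch before the start site that the RefSeq window of Kitl uses (chr10:100015750-100015773, plus strand). The gene table gives Kitl an earlier start, by which 206 of the 250 bases of its window, the printed stretch included, lie inside the gene.
Kit: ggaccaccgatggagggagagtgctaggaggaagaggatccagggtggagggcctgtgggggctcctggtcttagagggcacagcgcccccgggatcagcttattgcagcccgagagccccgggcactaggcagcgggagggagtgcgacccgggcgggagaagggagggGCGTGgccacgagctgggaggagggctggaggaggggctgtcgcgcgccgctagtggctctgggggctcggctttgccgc
Kitl: gggaaggagGCGTGtccggagctg

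GCGTG began 80 bases before the start of Kit and 62 bases before the start site used for the Kitl window, and it was in none of the other 6 member windows. On either strand 28.2% of all windows held it. These letters are a description of the sequence and do not show binding. CATGTG, an E-box bound by MITF, a factor of mast cells and melanocytes, was found on the reverse strand of Fcer1a only, and 12.2% of all windows held it.

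The proteases and the receptor and ligand genes lay on opposite sides of equality. All 5 protease genes that could be measured were higher on the transgenic array, by 1.74-fold to 2.82-fold, and all 3 measured genes of receptors and ligand were lower, by 1.11-fold to 2.21-fold. A gene counted as measured when its brightest probe set lay above a signal floor of 34.7 on at least 1 array, and 8 of the 10 members did. A difference of 2-fold or more was reached by 3 of these 8 upwards and by 1 downwards. Of all 8887 measured genes 2.27% reached it upwards and 1.08% downwards. A 1.5-fold limit was passed by all 5 measured proteases upwards and by Kitl downwards, against 6.81% and 6.37% of all measured genes. No member reached 3-fold, which 0.686% of all measured genes did upwards and 0.101% downwards. With 1 array per genotype there is no replicate error and no test, and each value below compares these 2 arrays only.

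**Figure D1:**
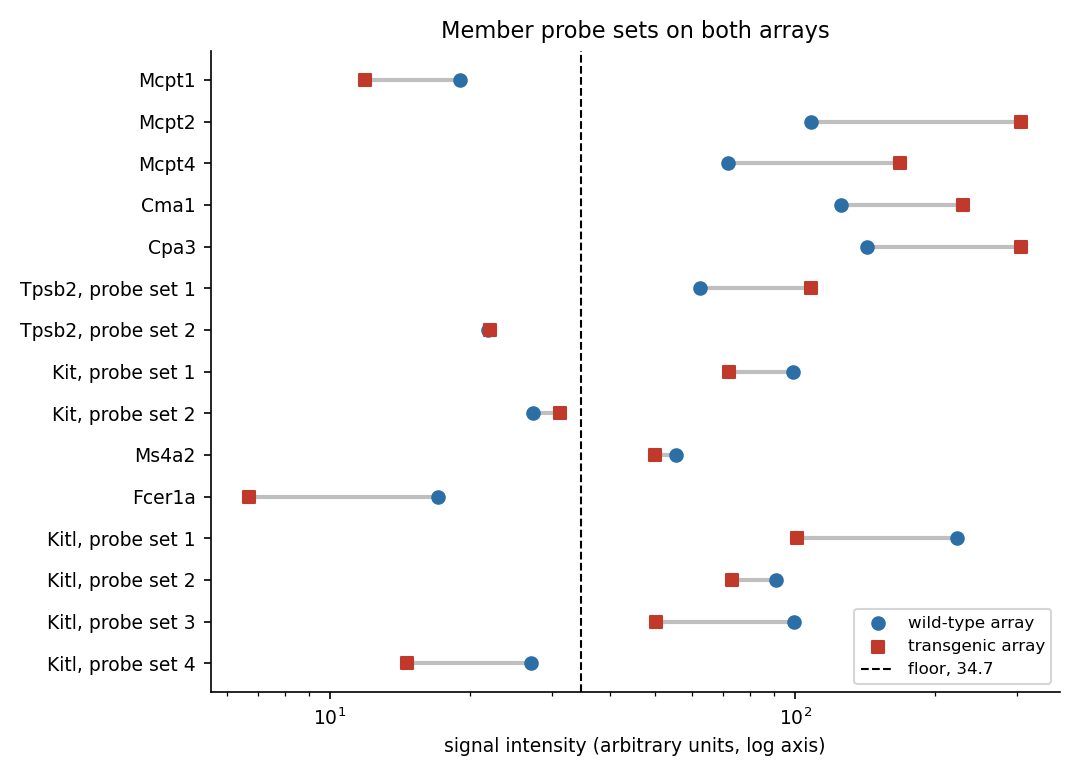
Signal intensity (arbitrary units, log axis) of the 15 member probe sets, with circles for the wild-type array, squares for the transgenic array and a dashed line at the floor of 34.7. The 5 measured proteases have the square to the right of the circle, and the 3 Kitl probe sets above the floor have it to the left.

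Mcpt2 encodes a chymase-family protease associated with mucosal mast cells. It read 304.9 on the transgenic and 108.1 on the wild-type array. At 2.82-fold higher (log2 ratio 1.496) it had the largest difference of the 10 members, and 68 of the 8887 measured genes had a higher ratio. Mcpt4 encodes the chymase typical of connective tissue mast cells. It read 168.2 against 71.5, which was 2.35-fold higher (log2 ratio 1.23). Cma1, the gene of another chymase-family protease that connective tissue mast cells store together with Cpa3, read 228.7 against 125.6. Its 1.82-fold difference (log2 ratio 0.86) was under the 2-fold limit.

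Cpa3, which encodes the carboxypeptidase of mast cell granules, read 305.7 on the transgenic and 142.5 on the wild-type array, 2.15-fold higher (log2 ratio 1.10). Tpsb2, a tryptase gene, read 108.2 against 62.3 by its brighter probe set, a 1.74-fold difference (log2 ratio 0.80). The other Tpsb2 probe set read 22.1 and 21.9, below the floor on both arrays, so the tryptase value rests on 1 of 2 probe sets. Mcpt1, associated with mucosal mast cells like Mcpt2, read 11.9 and 19.0, also below the floor on both. The 2 genes with closely alike upstream windows, Mcpt1 and Mcpt4, therefore fell on different sides of the floor.

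Each of the 5 measured proteases is read above the floor by a single probe set, so no second reading of any of them stands beside these ratios. Chymase genes are close relatives, and probe sequences were not used here, so signal shared between Mcpt1, Mcpt2, Mcpt4 and Cma1 was not tested. None of the member probe sets carries the suffix s or x, which marks expected binding of transcripts of other genes. The suffix a, for several transcripts of the same gene, is carried by 6 of the 15.

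The chymase genes lie side by side with granzyme genes on chromosome 14. Between Cma1 and Gzmb the gene table lists 15 protein-coding genes, of which 13 had a probe set. Only 4 of these were measured, Cma1, Mcpt2, Mcpt4 and Mcpt8. Cma1, Mcpt2 and Mcpt4 were above the floor on both arrays and higher on the transgenic one. Mcpt8, a granule protease gene best known from basophils, read 50.1 against 4.5, at least 1.44-fold higher. It passed the floor through the transgenic array alone, which fixes its direction. The 7 granzyme genes with a probe set, proteases of cytotoxic lymphocytes, were all below the floor on both arrays, with no signal over 24.2. Ctsg, the gene of cathepsin G, read 10.0 and 21.0. The signal above the floor was therefore limited to mast cell and basophil proteases among the genes of this cluster that the array reads. In the tryptase cluster on chromosome 17, 4 of 6 listed genes with a probe set were measured. None reached 2-fold, like most of all measured genes. The median of these 4 was 0.19, Tpsb2 was highest and Prss41, a serine protease gene, lowest (-0.21).

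**Figure D2:**
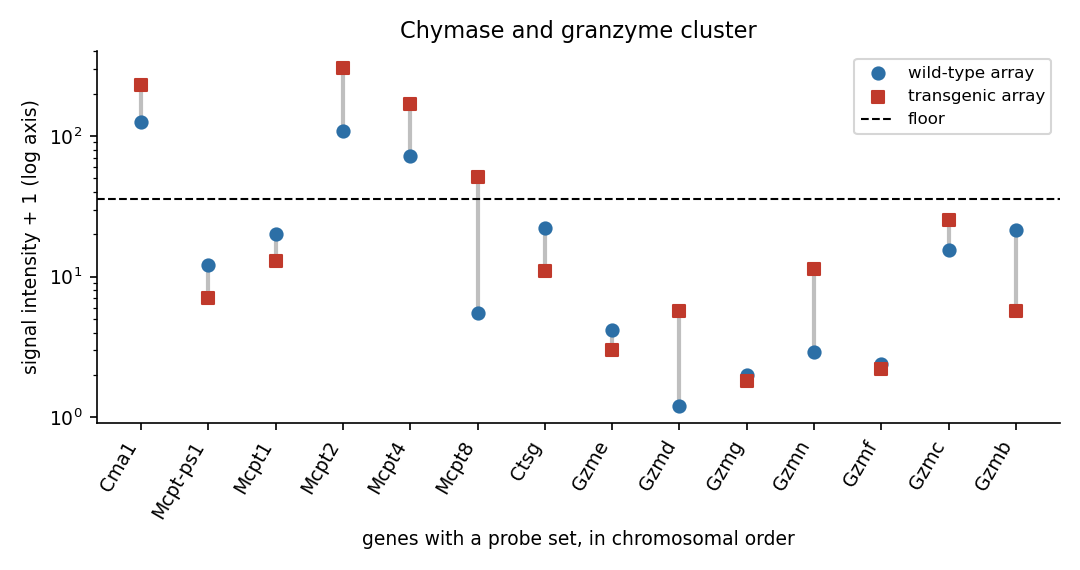
Signal intensity plus 1 (log axis) of the genes from Cma1 to Gzmb that have a probe set, in chromosomal order and not to distance, on the wild-type array (circles) and the transgenic array (squares). Cma1, Mcpt2, Mcpt4 and Mcpt8 have a square above the dashed floor, while Mcpt1, Ctsg and the 7 granzyme genes stay under it on both arrays; heights of different genes are not comparable.

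Kit encodes the receptor tyrosine kinase for stem cell factor. Its brighter probe set read 71.9 on the transgenic and 98.7 on the wild-type array, 1.37-fold lower (log2 ratio -0.46), and 970 of the measured genes had a lower ratio. The other probe set read 31.2 and 27.3, below the floor. Ms4a2, the gene of the beta chain of the high-affinity IgE receptor, read 50.0 against 55.4, a log2 ratio of -0.15. Fcer1a, the gene of the chain that binds IgE, read 6.7 and 17.1, below the floor on both arrays. None of the receptor genes was higher where the proteases were.

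Kitl was the only member lower by at least 2-fold. It has 4 probe sets, of which 3 were measured, and all 3 were lower on the transgenic array. The brightest read 100.8 against 222.5, 2.21-fold lower (log2 ratio -1.14), and 54 of 8887 measured genes had a lower ratio. Another read 50.1 against 99.5, 1.99-fold lower, and the one of intermediate brightness 73.2 against 91.0, 1.24-fold lower. The dimmest, 14.6 against 27.0, was below the floor. Averaged over the 3 measured probe sets the log2 ratio of Kitl was -0.82, which is under the 2-fold limit, so the direction was shared by the probe sets and the size was not.

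**Figure D3:**
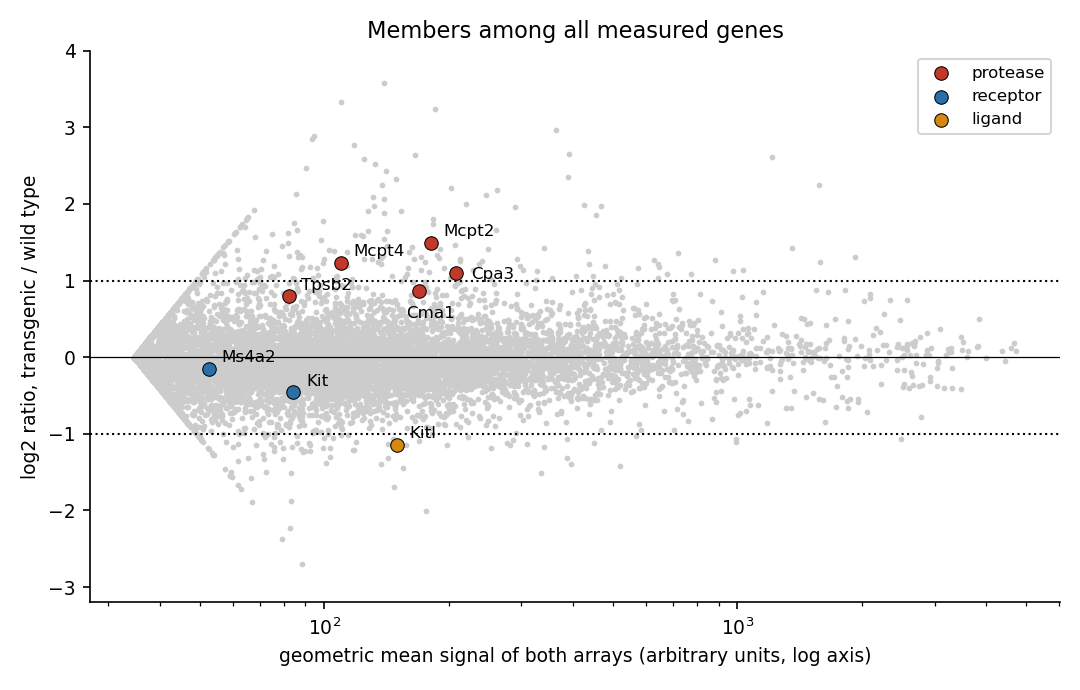
Log2 ratio (transgenic / wild type) against the geometric mean signal of both arrays (log axis) for all measured genes (grey) and the 8 measured members (coloured by role), with dotted lines at 2-fold; 3 genes lie outside the plotted range. The 5 proteases lie between 0.80 and 1.496, Ms4a2 and Kit just below 0, and Kitl at -1.14.

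The median log2 ratio was 1.10 over the 5 measured proteases and -0.46 over Kit, Ms4a2 and Kitl, a difference of 1.56, while the median of all measured genes was -0.05. The lowest protease, Tpsb2, stood 0.94 above Ms4a2, the highest of the other 3. As a technical yardstick, 2 probe sets of the same gene were compared in 2533 genes: their log2 ratios differed by a median of 0.21, and 95% of the differences were below 0.73. All 5 protease ratios were larger than that, and those of Kit and Ms4a2 were not. Kitl was larger in size by its brightest probe set (-1.14) and by another (-0.99), but not by the one of intermediate brightness (-0.31). The spread between probe sets comes from within the same 2 arrays and is no error between animals. Among 4875 genes of similar brightness the central 95% of log2 ratios ran from -0.81 to 0.97. Mcpt2, Mcpt4 and Cpa3 lay above that range, Cma1 and Tpsb2 inside it and Kitl below it.

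Other genes of mast cells followed the proteases less uniformly. Of 28 further genes listed for granules, surface and mediators, 18 had a probe set and 11 were measured. Of these 11 genes 2 reached 2-fold, both upwards, against 2.27% of all measured genes, and the median log2 ratio of the 11 was 0.28. Fcer1g, which is 1 of these 2, and Mcpt8 passed the floor through the transgenic array alone, which fixes their direction. Ptger3 passed it through the wild-type array alone. Without Fcer1g and Mcpt8, 9 genes were measured, 1 reached 2-fold and the median was 0.25. In the granule list Srgn, whose product serglycin carries the heparin chains that hold the proteases, read 191.4 against 126.3 (log2 ratio 0.60). Ctsc, the gene of the protease that removes the activation peptide of chymases and granzymes, read 1029.2 against 868.4 (0.25). Tpsab1, another tryptase gene and a transcribed pseudogene in the reference strain, read 45.9 against 37.9 (0.28), and Ndst2, an enzyme of heparin synthesis, 98.8 against 121.4 (-0.30). Tpsg1, Hdc, which makes histamine, and Tph1, of serotonin synthesis, were below the floor on both arrays.

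The surface and mediator genes diverged. Fcer1g encodes the gamma chain shared by IgE and IgG receptors, and it read 112.4 against 4.7, at least 3.24-fold higher because the wild-type signal lay below the floor. Alox5ap, needed for leukotriene synthesis, read 258.4 on the transgenic array, 2.58-fold higher than on the wild-type array. Both are also expressed by macrophages. Of 12 listed macrophage genes 11 were measured and 6 reached 2-fold, all upwards, against 2.27% of all measured genes. Of the 11 values 2 were bounds: Cd163, among the 6, and Fcgr1 passed the floor through the transgenic array alone, which fixes their direction. The macrophage genes ran from Msr1 (-0.29) to C1qa (2.59). Their median was 1.06, and the summed signal of the list was 2243.5 against 837.0. Their part in Fcer1g and Alox5ap was not tested. C3ar1, a complement receptor gene, gave 0.28 by one probe set and 0.93 by the other. Rab27b, which serves granule release, was at -0.49, Ltc4s, of leukotriene synthesis, at -0.28, and Ptger3 at -0.09 or lower. Of the 3 IgE receptor chains, the shared gamma chain was above the floor on the transgenic array alone, which fixes its direction. The beta chain was within 2-fold, and the chain that binds IgE was below the floor on both arrays.

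**Figure D4:**
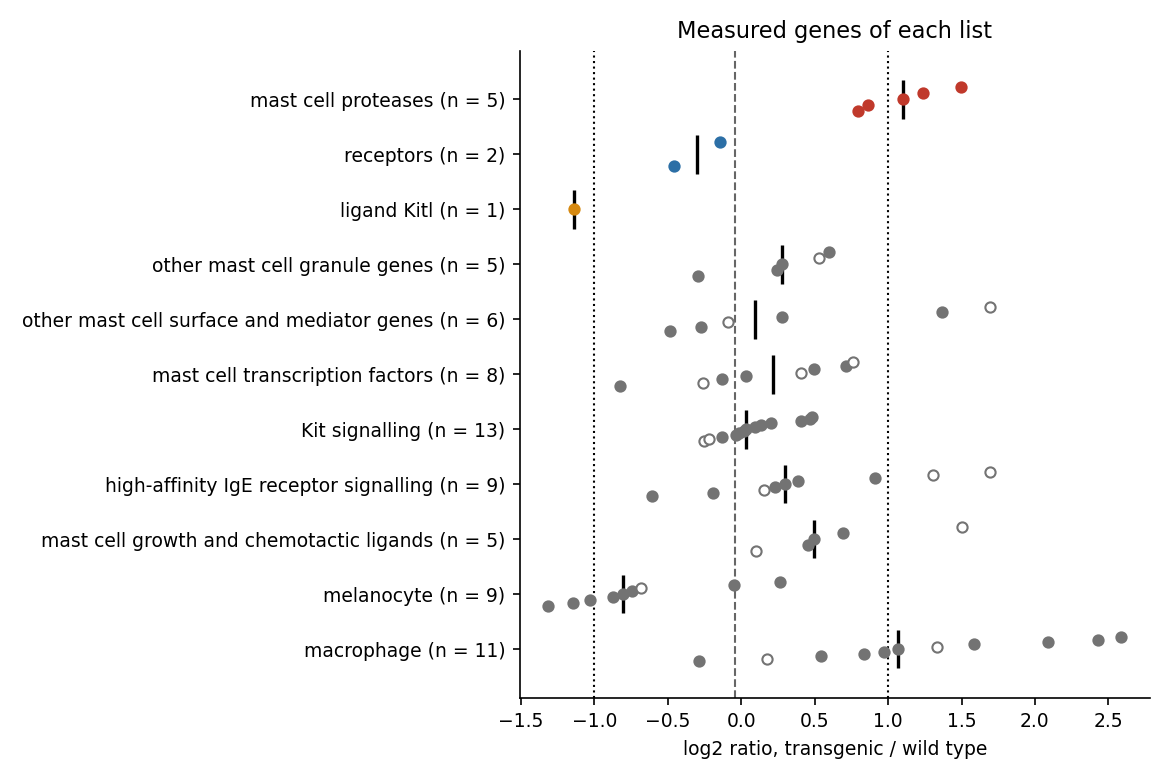
Log2 ratio (transgenic / wild type) for the measured genes of each list (points; open where 1 array was at the floor), the list median (black bar), the median of all measured genes (dashed) and 2-fold limits (dotted). The proteases have a median of 1.10, near that of the macrophage markers (1.06), while Kitl (-1.14) and the melanocyte markers (-0.81) lie on the left.

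Signalling genes downstream of the receptors were set against all measured genes, of which 2.27% reached 2-fold upwards and 1.08% downwards. None of 13 measured Kit signalling genes reached 2-fold in either direction, and their median was 0.03. At such low shares, the lack of a call in a list this short is no result about its genes. Ptpn6, a phosphatase that restrains Kit, was highest at 0.48, followed by Pik3ca, a lipid kinase subunit, at 0.47, and the lowest were Sos1 (-0.25 or lower) and Cbl (-0.22 or lower). Of 9 measured genes of IgE receptor signalling 2 were at least 2-fold higher, Fcer1g and Inpp5d. Both passed the floor through the transgenic array alone, which fixes their direction. Inpp5d, the gene of the inhibitory phosphatase SHIP1, read 85.8 against 23.3, at least 2.47-fold higher. Its other probe set read 50.8 against 19.4 (log2 ratio of at least 0.55), also above the floor on the transgenic array alone. At the low end stood Fyn, a Src-family kinase gene (-0.61, but -0.21 by its dimmer probe set). Stim1, a calcium sensor gene, was next (-0.19, and -0.32 by its dimmer probe set). Syk, the kinase that the gamma chain recruits, was at 0.30.

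Among 8 measured transcription factor genes of mast cells none reached 2-fold, which few of all measured genes did (2.27% upwards and 1.08% downwards). Mitf, which regulates both mast cells and melanocytes, read 187.0 against 331.7 and was lowest (log2 ratio -0.83). Gata1 was next, at -0.26 or lower. Spi1, a myeloid factor gene, was at least 0.76 and Bhlhe40 0.72. Gata1 passed the floor through the wild-type array alone and Spi1 through the transgenic array alone, which fixes their directions. Gata2 read 93.3 against 102.4 (-0.13) by its brighter probe set. Mitf therefore stood on the side of Kit and Kitl.

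Of 12 further ligands that act on mast cells 5 were measured. Tgfb1, Cx3cl1 and Cxcl12 were above the floor on both arrays, and each had a log2 ratio above 0, whereas Il33 and Ccl2 passed it through the transgenic array alone, which fixes their direction. Il33, an alarmin of epithelium that activates mast cells, read 98.3 against 20.7 and was at least 2.83-fold higher. It was the only one of the 5 past 2-fold, which 2.27% of all measured genes reached upwards. Cxcl12, a chemokine gene, was next at 0.70, but at 0.19 by its dimmer probe set. The lowest were Ccl2 (at least 0.10) and Tgfb1 (0.46). Il3, Il4, Il6, Il9, Tslp and Ccl5 were below the floor on both arrays.

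Markers of the other cells that carry these genes were read on the same arrays. Of 10 listed genes of melanocytes, cells that carry Kit, 9 were measured and 8 lay below 0. Of these 8, 3 were lower by 2-fold or more, against 1.08% of all measured genes. Gpr143, also among the 8, passed the floor through the wild-type array alone, which fixes its direction. Sox10 was at -0.05, near the median of all measured genes, and above 0 by its other probe sets (0.13 and 0.14). The median of the list was -0.81 and its summed signal 1590.6 against 2863.4. Tyr was lowest (-1.31) and Rab38 highest (0.27). The part of melanocytes in the lower Kit and Mitf values was not tested. Stem cell factor can come from keratinocytes, fibroblasts and endothelial cells. Basal keratinocyte genes had a median of 0.56 over 7 measured, from Krt15 (-1.43) to Itgb4 (1.02), fibroblast genes 0.40 over 7, from Col1a1 (-0.54, but 0.41 by its dimmer probe set) to Pdgfra (1.40), and endothelial genes 0.34 over 5, from Tek (-0.54 or lower) to Kdr (0.66). The summed signals of these 3 lists were 7763.5 against 5766, 9540.4 against 9883.4 and 320.4 against 263.4. All 3 medians lay above 0. Of the 7 fibroblast genes 5 lay above 0 and 2 below, although the summed signal of that list was lower on the transgenic array. The part of keratinocytes, fibroblasts and endothelial cells in the Kitl value was not tested.

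Markers of other granulocytes and of lymphocytes were mostly below the floor, with Gata2, which mast cells express as well, an exception. All 5 eosinophil genes with a probe set were below the floor on both arrays, with summed signals of 65 and 68.4. Of the 3 basophil genes with a probe set, Mcpt8 and Gata2 were measured, the median was 0.20 and the summed signal was 175.5 against 122.3. Cytotoxic lymphocyte genes were measured for Prf1 (-0.50) and Nkg7 (-0.55 or lower) only, while Gzma, Gzmb and Cd8a were below the floor, and the 5 summed to 123.3 against 168.7. Genes of Langerhans and dendritic cells reached a median of 1.09 over 6 measured and a summed signal of 2914.5 against 1391.7. They ran from Epcam (0.64) to H2-Ab1 (1.74, and 0.62 and 1.87 by its other probe sets). Itgax passed the floor through the transgenic array alone, which fixes its direction, and Cd207 and Flt3 were below the floor on both. Skeletal muscle genes, from Myh8 (-1.27 or lower) to Acta1 (0.07), had a median of -0.70 over 7 measured and summed to 4080.6 against 4979.9. Their part in the member ratios was not tested.

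**Figure D5:**
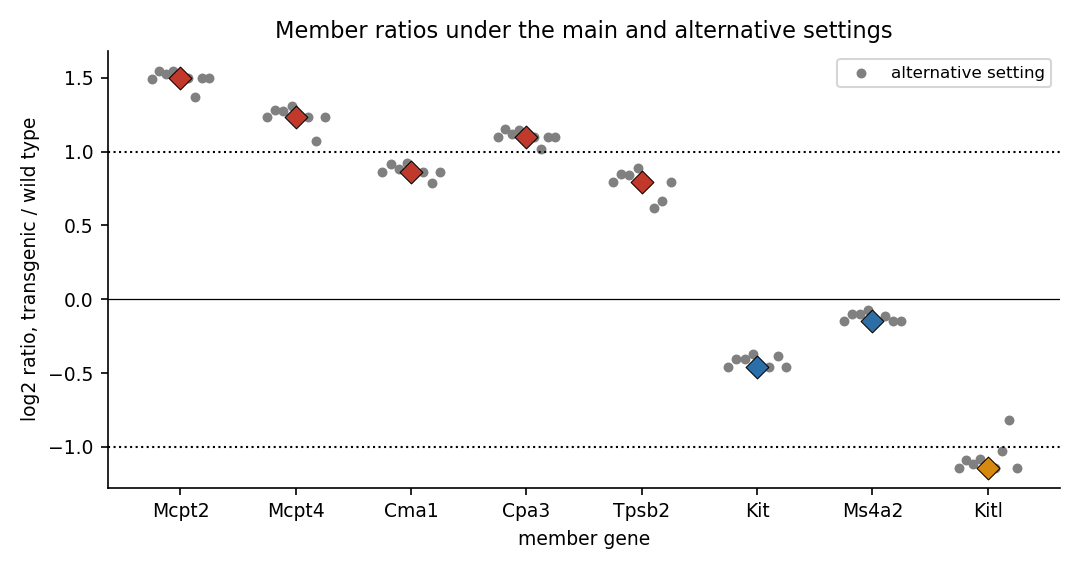
Log2 ratio of each measured member under the main setting (diamonds, coloured by role) and under up to 9 alternative settings (grey points), with dotted lines at 2-fold. No member crosses 0, Mcpt2, Mcpt4 and Cpa3 stay above 1 in all settings that give them a value, and Kitl is inside the 2-fold limit in 1 setting, the mean over its probe sets.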

How the data were processed

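Biotin-labelled RNA was hybridised to 1-colour arrays, per the labels. The authors deposited linear signal intensities, 1 per probe set and never negative. Their 2% trimmed means were 99.8 and 99.9, so they had been scaled before deposit. The software and any detection calls are not given in the sources used here. Of 22690 probe sets 64 were controls, and 20380 had 1 gene in the platform annotation of 2016, 691 several and 1555 none. Symbols were updated by gene identifier to GRCm38.p6. Signals were scaled to equal trimmed means, raised to a floor at their 40th percentile (34.7) and put on the log2 scale (Python 3.11.15). A gene took its brightest probe set. Genes were called at 2-fold, and a ratio with 1 array at the floor is a bound. Its direction is fixed by the array that passed the floor. There was no replicate and hence no test, and having 2 arrays limits the precision. The calculation was tested on simulated arrays. All members, all measured further mast cell granule, surface and mediator genes, the 2 highest and 2 lowest of other lists and the ends of marker lists are named, besides genes below the floor. Syk, Gata2, Cx3cl1, Cd163, Fcgr1, Gpr143, Sox10, Itgax and the second and further probe sets were singled out after their values were seen. The members and lists were chosen with earlier results of these data known. Upstream windows were aligned with Biopython 1.88.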

Additional observations from a re-analysis of the deposited data

How the results depend on the processing

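All 8 measured members kept their direction in every alternative that gave them a value: no further scaling, median, quantile or lowess centring (span 0.4), a floor at the 20th percentile or at the 60th, a pseudocount of 16 instead, averaged probe sets, and suffixed probe sets left out. Members at least 2-fold higher numbered 3, and 2 without suffixed probe sets, where Mcpt4 is not read. Members at least 2-fold lower numbered 1 (Kitl), and 0 with the mean over probe sets. At a 1.5-fold limit 5 members were called higher, and at a 3-fold limit 0 were called higher and 0 lower. The gap between the medians of the proteases and of the receptors and Kitl was 1.94 without suffixed probe sets, which leave 4 members, against 1.56. The median of the proteases ran from 0.98 to 1.30, and that of the receptors and Kitl from -0.80 to -0.37. With the floor at the 20th percentile (11.9) Mcpt1 and Fcer1a also counted as measured, at log2 ratios of -0.67 and of -0.52 or lower, respectively. Ms4a2 was not measured with the floor at the 60th percentile, 70.7. No paired analysis was possible because each group has 1 array. Dim signals limit what can be said of Mcpt1, Fcer1a, Ms4a2 and the second probe sets of Kit and Tpsb2.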
